A study of Mus musculus with 4 samples.

Results

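Of the 847 rows of a small RNA table, 2 were examined here, those named mmu-miR-320-3p and mmu-miR-484, and both were found in the table. They were chosen by name, as microRNAs (miRNAs) whose hairpins are known to be made without Drosha, and the rule uses no measured value, although earlier results of these data were known when it was set. Macrophages had been sorted from bone marrow (BM) and spleen of C57BL/6J mice, leukaemic or normal, and each combination of tissue and state gave 1 library. The AML libraries came from mice 18 days after transfer of GFP+ MLL-AF9 acute myeloid leukaemia cells into unirradiated recipients aged 6 to 8 weeks. The normal libraries came from mice of the same strain and age, labelled as normal. The MLL-AF9 oncogene joins part of the histone methyltransferase MLL to part of AF9. The labels state a survival of 35 to 40 days, so the AML samples were taken well before that time. The labels call the AML macrophages leukaemia-associated macrophages, and the stated aim was to set their miRNAs against those at homeostasis. With 1 library per group, every difference below is between libraries and has no replicate check. In such bulk samples, a change in the mix of cells and a change in RNA per cell cannot be told apart.

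Most miRNAs are cut by Drosha in the nucleus and then by Dicer in the cytoplasm. The miR-320 hairpin is transcribed directly as a short capped RNA, leaves the nucleus through exportin-1 and needs Dicer alone, and its cap disfavours loading of the 5′ arm onto Argonaute. The miR-484 hairpin was likewise found in mouse embryonic stem cells to need Dicer and not Drosha. Mirtrons, such as miR-877, reach the same step by splicing, since the spliced-out intron is itself the hairpin. Known targets include the transferrin receptor for miR-320 in human red cell precursors and the mitochondrial fission protein Fis1 for miR-484 in mouse heart muscle cells.

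By the RefSeq gene list of mouse assembly GRCm38.p6, the closest protein-coding gene to Mir320, on chromosome 14, was Polr3d, which encodes a subunit of RNA polymerase III. The closest to Mir484, on chromosome 16, was Marf1, which encodes a regulator of meiosis in oocytes. Neither hairpin overlapped its neighbour in that list. The mature miR-484 lies at chr16:14159630-14159651 on the plus strand of GRCm38.p6, inside a hairpin of 67 bases at chr16:14159626-14159692. It is shown because the results turn on it, beside the arms of the mirtron miR-877 and 2 miRNAs whose levels followed its own most closely. All sequences are from RefSeq, 5′ to 3′. The sequence set used held no entry for miR-320-3p or its hairpin, so the sequence, seed, fold and GC content of miR-320-3p are not given. Capitals mark the seed (bases 2 to 8), and in the hairpin they mark the whole mature miRNA.
miR-484: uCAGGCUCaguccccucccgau
miR-484 hairpin: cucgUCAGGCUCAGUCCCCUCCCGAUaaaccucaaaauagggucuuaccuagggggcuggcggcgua
miR-877-5p: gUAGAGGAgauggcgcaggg
miR-877-3p: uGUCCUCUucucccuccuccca
miR-361-3p: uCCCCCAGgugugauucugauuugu
miR-93-5p: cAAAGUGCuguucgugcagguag
The mature miR-484 began at base 5 of the hairpin and ended at base 26, which places it on the 5′ arm, and 13 of its 22 bases were paired in the predicted fold of lowest free energy (-24.6 kcal/mol). The hairpin was shorter than the median of 79 bases over 1005 RefSeq mouse hairpins. No other RefSeq mature mouse miRNA had its seed. G and C made up 63.6% of its bases, against a median of 52.2% over the 673 rows of the table with a RefSeq mature sequence, of which 121, miR-484 included, had as much or more.

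The miR-484 level was high in both spleen libraries and low in both BM libraries, whereas that of miR-320-3p lay in a narrow band. Raw counts of miR-484 were 1221 in AML spleen, 826 in AML BM, 4038 in normal spleen and 492 in normal BM. Scaled to library size, these gave 6328 counts per 1000000 reads (CPM) in AML spleen, 2946 CPM in AML BM, 10299 CPM in normal spleen and 2373 CPM in normal BM. The exact Poisson 95% intervals were 5978 to 6694 CPM in AML spleen, 2748 to 3154 CPM in AML BM, 9983 to 10621 CPM in normal spleen and 2167 to 2592 CPM in normal BM. Normal spleen was thus highest, followed by AML spleen, AML BM and normal BM, with no overlap of neighbouring intervals. These intervals and all others here cover counting error only, since each group has 1 library. They also take each read as a separate molecule, since the files give no molecular identifiers by which copies could be told apart. By abundance, miR-484 stood at rank 34 in AML spleen, 53 in AML BM, 24 in normal spleen and 57 in normal BM.

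For miR-320-3p the counts were 656 in AML spleen, 996 in AML BM, 1785 in normal spleen and 643 in normal BM. The scaled levels were 3400 CPM in AML spleen, 3552 CPM in AML BM, 4553 CPM in normal spleen and 3101 CPM in normal BM. Their 95% intervals ran from 3145 to 3671 CPM in AML spleen, 3335 to 3780 CPM in AML BM, 4344 to 4769 CPM in normal spleen and 2866 to 3350 CPM in normal BM. Normal spleen was highest and lay apart from the rest. In the order AML BM, AML spleen, normal BM, the intervals of neighbours overlapped. Its ranks were 46 in AML spleen, 47 in AML BM, 36 in normal spleen and 51 in normal BM.

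**Figure D1:**
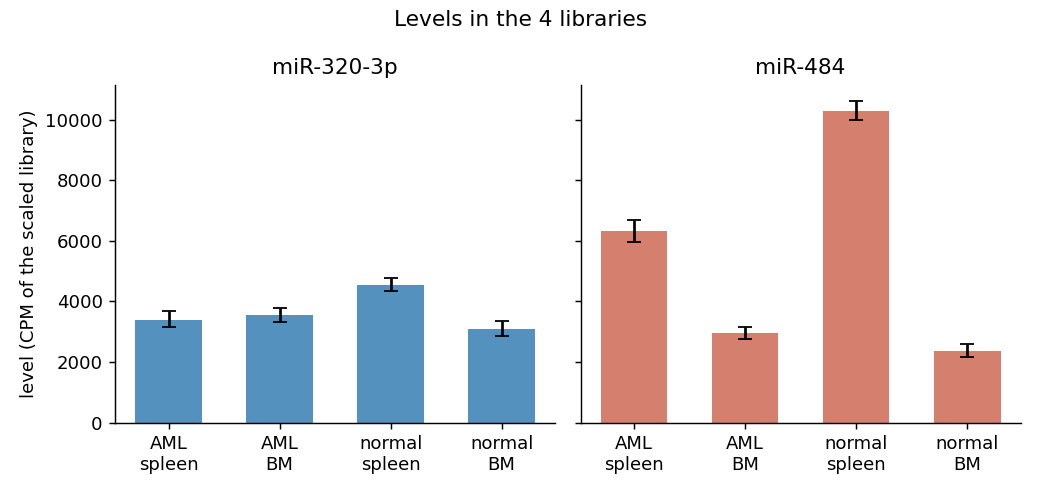
Level of each miRNA in each library, in CPM of the scaled library. Bars are single libraries and error bars are exact Poisson 95% intervals. The miR-484 bars of the spleen libraries (6328 and 10299 CPM) stand above those of the BM libraries (2946 and 2373 CPM), while the miR-320-3p bars lie between 3101 and 4553 CPM.

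Together the 2 miRNAs held 1.04% of the reads in AML spleen, 0.672% in AML BM, 1.34% in normal spleen and 0.549% in normal BM. No other row repeated the counts of either one in all 4 libraries within 3% or 2 counts. Total counts were between 180227 and 435492 per library, and the deepest library had 2.42 times the reads of the shallowest.

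In leukaemic BM both miRNAs stood slightly above normal BM, by less than 2-fold. The log2 ratio of AML BM over normal BM was 0.31 for miR-484, with an exact conditional 95% interval of 0.15 to 0.48. It was 0.20 for miR-320-3p, with an interval of 0.05 to 0.34. A miRNA was called different when it differed at least 2-fold, its interval excluded equality and its larger count was at least 30. By this rule 0 of the 2 were called, and 25.5% of the 216 miRNAs compared were, 29 higher and 26 lower in AML BM. Scaled on totals without the 10 most abundant miRNAs, that split was 39 higher and 19 lower. The median log2 ratio of the 216 was 0.00, and miR-484 stood at rank 81 and miR-320-3p at rank 94 from the highest.

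In leukaemic spleen both stood below normal spleen, again by less than 2-fold. The log2 ratio of AML spleen over normal spleen was -0.70 [-0.80 to -0.61] for miR-484 and -0.42 [-0.55 to -0.29] for miR-320-3p. Of the 2, 0 were called, and 46.3% of the 216 miRNAs compared were, 54 higher and 46 lower in AML spleen. With DESeq2 size factors that split was 51 higher and 68 lower. The median of the 216 was -0.25, so miR-320-3p lay close to the middle of this comparison, at rank 123 from the highest, and miR-484 at rank 143. All log2 ratios of this comparison moved together by 0.25 on total counts and by -0.24 with DESeq2 size factors, which leaves the ranks as they are.

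Both AML ratios thus had opposite signs in the 2 tissues. The AML ratio of spleen minus that of BM was -1.01 for miR-484, with a 95% counting interval of -1.20 to -0.83, and -0.62 for miR-320-3p, with one of -0.81 to -0.42. Opposite signs were the rule in this table, being found for 136 of the 186 miRNAs compared in both tissues. The median difference over those 186 was -0.38, with quartiles at -1.42 and 1.75. The difference was smaller in size than that of miR-320-3p for 39 of them and smaller than that of miR-484 for 65.

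The separation of the tissues was where miR-484 moved most. In normal spleen over normal BM its log2 ratio was 2.12 [1.98 to 2.26], which is 4.34-fold, and that of miR-320-3p was 0.55 [0.42 to 0.69]. Of the 2, miR-484 was called higher and miR-320-3p was not called, where 30.8% of 234 miRNAs were called higher and 66.2% were called in either direction. A call in this comparison was therefore common, and miR-484 stood at rank 34 from the highest and miR-320-3p at rank 95.

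Between the leukaemic tissues the gap of miR-484 was smaller. In AML spleen over AML BM its log2 ratio was 1.10 [0.97 to 1.23], which was called, and miR-320-3p stood at -0.06 [-0.21 to 0.08], an interval that spans equality. Here 13.7% of 211 miRNAs were called higher and 35.1% in either direction, and miR-484 stood at rank 26 from the highest, with miR-320-3p at rank 100. The lower bound of the miR-484 interval lies just under 2-fold. The comparisons share libraries, so their values are not independent of one another.

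**Figure D2:**
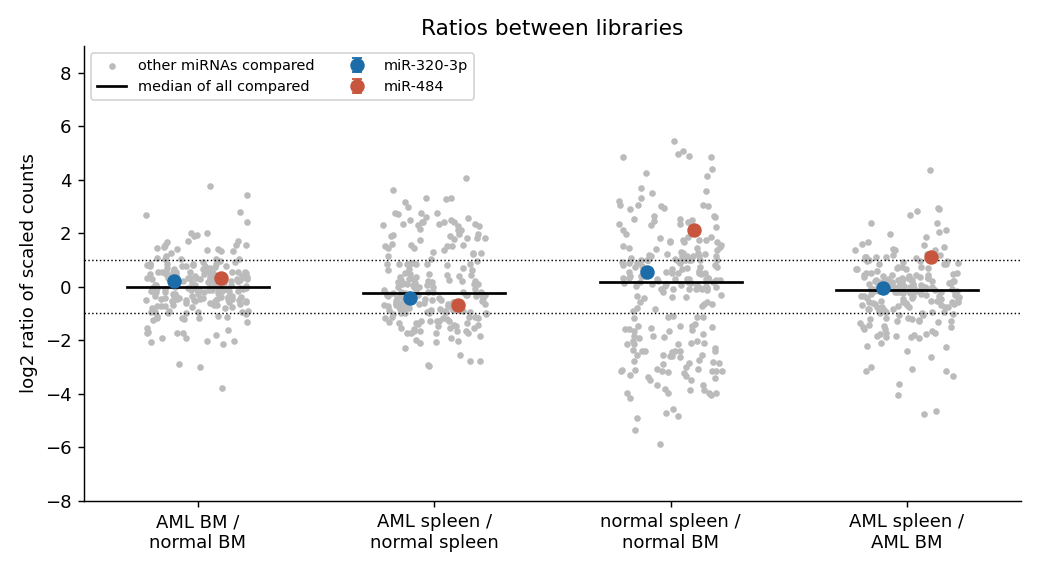
Log2 ratio of scaled counts in each of the 4 comparisons, with the comparison on the x axis. Grey points are the other miRNAs compared, black lines are medians, dotted lines mark 2-fold, and bars on the coloured points are 95% intervals, shorter than the points. For miR-484 the points lie at 2.12 and 1.10 in the tissue comparisons, and those of miR-320-3p lie between -0.42 and 0.55 throughout.

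The ratio of the 2 miRNAs within a library needs no scaling, and it separated the tissues as well. There were 1.86 miR-484 reads per miR-320-3p read in AML spleen [1.69 to 2.05], 0.829 in AML BM [0.755 to 0.910], 2.26 in normal spleen [2.14 to 2.39] and 0.765 in normal BM [0.679 to 0.862]. Reads of miR-484 outnumbered those of miR-320-3p in both spleen libraries and fell short of them in both BM libraries. Normal spleen had 2.96 times the ratio of normal BM, with an exact conditional 95% interval of 2.59 to 3.37, and AML spleen had 2.24 times that of AML BM [1.96 to 2.57]. Between AML BM and normal BM the ratio changed by a factor of 1.08 [0.931 to 1.26], an interval that includes no change. Between AML spleen and normal spleen the factor was 0.823 [0.736 to 0.920].

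**Figure D3:**
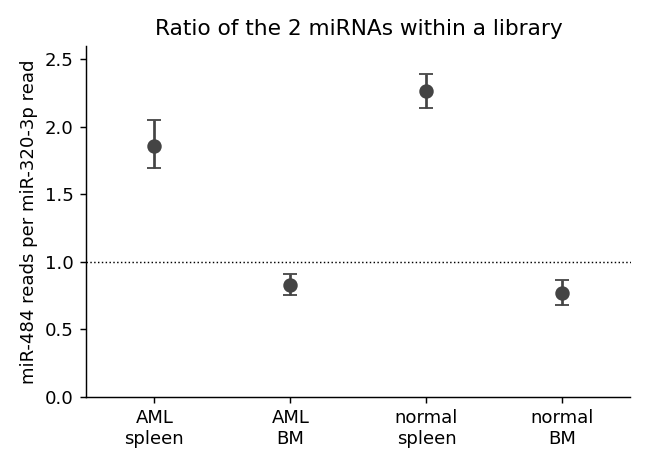
Reads of miR-484 per read of miR-320-3p in each library. Points are single libraries, bars are exact binomial 95% intervals and the dotted line marks equal counts. AML spleen (1.86) and normal spleen (2.26) lie above the line, and AML BM (0.829) and normal BM (0.765) lie below it.

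A model with additive terms for leukaemia and tissue was fitted to the 4 libraries and 246 miRNAs, with 1 residual degree of freedom. In edgeR's quasi-likelihood test with Benjamini-Hochberg adjustment, the spleen over BM log2 fold change was 1.68 for miR-484 (adjusted p = 0.760, unadjusted p = 0.126) and 0.31 for miR-320-3p (adjusted p = 0.948). The AML over normal log2 fold change was -0.03 for miR-484 and 0.05 for miR-320-3p (adjusted p = 0.996 for both with edgeR). Neither passed the threshold of 0.05. The edgeR test called 0 of the 246 (0%) for either term, with 15 at an unadjusted p under 0.05 for tissue and 0 for AML. DESeq2 called 8 for tissue and 0 for AML, and gave miR-484 an adjusted p of 0.341 for tissue (DESeq2 Wald test, unadjusted p = 0.0454). Any gap between the AML responses of BM and spleen enters this model as residual spread, and the labels do not say whether the libraries came from separate animals. The common dispersion of edgeR, its estimate of spread beyond counting error, was 0.417, so a lack of calls does not show equal levels.

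Reads of the miR-320 hairpin came almost wholly from its 3′ arm. The row miR-320-5p had 0 counts in AML spleen, 0 in AML BM, 1 in normal spleen and 0 in normal BM. That is 1 of 4081 reads over both arms, or 0.0245% (exact 95% interval 0.000620% to 0.136%). In the libraries with a count of 0, taking 3 counts as the limit that a count of 0 allows, the 5′ share could be up to 0.457% in AML spleen, 0.301% in AML BM and 0.467% in normal BM. One-sidedness was ranked among 54 hairpins with a row for each arm under the same name and at least 1000 reads over both. There miR-320 ranked 4 from the most one-sided, after let-7g, miR-328 and miR-1198. Hairpins with a row for only 1 arm were left out, such as that of miR-744-5p, which had 12266 reads in AML BM. Also left out were miRNAs whose arms are named differently, such as miR-92a-3p, with 26906 reads in AML BM. The rows of its other arm, miR-92a-1-5p and miR-92a-2-5p, carry an added number. The rank therefore holds only among hairpins whose arms have rows under the same name. The median share of the lesser arm over the 54 was 1.35%. The mirtron miR-877 had 250 reads from its 5′ arm and 303 from its 3′ arm, a lesser share of 45.2%. The table names miR-484 without an arm and has no second row for its hairpin.

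Among other miRNAs made without Drosha, the mirtron list (both arms of miR-877, miR-1224 and miR-702) had 4 of 6 members in the table and 2 with enough reads to compare. These were the arms of miR-877, and 0 of 2 were called in any of the 4 comparisons, where the share of all miRNAs called was 25.5% in AML BM over normal BM, 46.3% in AML spleen over normal spleen, 66.2% in normal spleen over normal BM and 35.1% in AML spleen over AML BM. The miR-877-3p level was 347 CPM in AML spleen, 300 CPM in AML BM, 252 CPM in normal spleen and 256 CPM in normal BM. For miR-877-5p it was 171 CPM in AML spleen, 246 CPM in AML BM, 240 CPM in normal spleen and 260 CPM in normal BM. In normal spleen over normal BM, where miR-484 had a log2 ratio of 2.12, the miR-877 arms stood at -0.02 [-0.51 to 0.49] and -0.12 [-0.62 to 0.39] for the 3′ and the 5′ arm. In AML spleen over AML BM they stood at 0.21 [-0.27 to 0.69] and -0.52 [-1.17 to 0.09]. All 4 of these intervals include equality.

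The list of miRNAs cut from small nucleolar RNAs, another source that bypasses Drosha, had 2 of 4 members compared, miR-1839-5p and miR-664-5p. Their counts were 23 and 7 in AML spleen, 77 and 34 in AML BM, 157 and 39 in normal spleen and 78 and 10 in normal BM, with miR-1839-5p given before miR-664-5p. Both were called lower in AML spleen over normal spleen, at log2 ratios of -1.75 [-2.45 to -1.11] and -1.45 [-2.86 to -0.28], where 21.3% of the 216 miRNAs compared were called lower. Both were also called lower in AML spleen over AML BM, at -1.20 [-1.94 to -0.52] and -1.74 [-3.16 to -0.54], where miR-484 was called higher and 21.3% of 211 miRNAs were called lower. In normal spleen over normal BM, miR-664-5p was called higher like miR-484, at 1.04 [0.02 to 2.21], a call that ended on total counts (0.89), and miR-1839-5p was not, at 0.09. In AML BM over normal BM, miR-664-5p was called higher at 1.33 [0.28 to 2.51], as were 13.4% of miRNAs there, and miR-1839-5p was not, at -0.45. With so few reads these intervals are wide. In contrast to all of these, miR-451a is cut by Drosha and then by Argonaute2 in place of Dicer. It had 355 counts in AML spleen, 323 in AML BM, 186 in normal spleen and 1063 in normal BM, a log2 ratio of -3.43 in normal spleen over normal BM.

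Both miRNAs are in common use as references in quantitative PCR, so their range over the libraries was set beside 12 others used that way. A minimum of 30 counts in each of the 4 libraries was met by 144 miRNAs, whose median gap between the highest and lowest log2 level was 1.55. For miR-320-3p the gap was 0.55, or 1.47-fold, which ranked 16 from the smallest. For miR-484 it was 2.12, or 4.34-fold, which ranked 99. Of the 12 others, miR-26a-5p (0.31) and miR-103-3p (0.33) had a smaller gap than miR-320-3p, while miR-191-5p (1.97) and miR-30e-5p (1.87) came closest to miR-484. The 12 had median log2 ratios of 0.16 in AML BM over normal BM, -0.37 in AML spleen over normal spleen, 0.57 in normal spleen over normal BM and -0.06 in AML spleen over AML BM. The 12 gave 0 calls in AML BM over normal BM (25.5% of all miRNAs compared), 1 higher and 3 lower in AML spleen over normal spleen (46.3%), 3 higher and 1 lower in normal spleen over normal BM (66.2%), and 1 lower in AML spleen over AML BM (35.1%). That last call, of let-7i-5p, ended on total counts (-0.95). Other calls of the 12 also depended on scaling. In AML spleen over normal spleen, miR-25-3p lost its call on total counts (-0.91) and miR-423-5p gained one (1.11). There miR-93-5p gained one with DESeq2 size factors (-1.14). In normal spleen over normal BM, miR-16-5p gained one on total counts (-1.07). With DESeq2 size factors, miR-25-3p (1.10), miR-423-3p (1.19) and miR-186-5p (1.06) gained one there. In AML spleen over AML BM, miR-186-5p gained one on total counts (1.04).

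**Figure D4:**
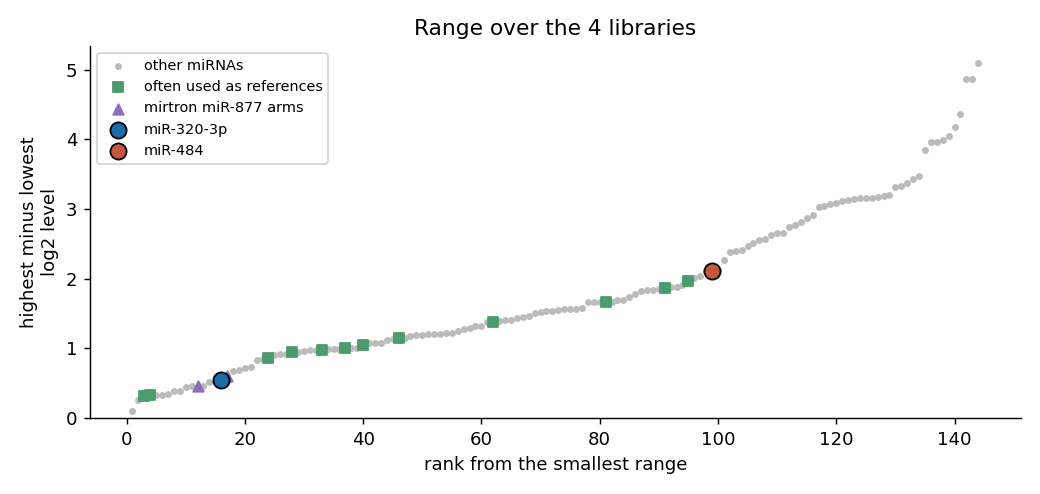
Highest minus lowest log2 level over the 4 libraries for each of the 144 miRNAs that reached 30 counts in all of them, ordered by size. Squares are miRNAs often used as references, triangles are the arms of miR-877 and grey points are the other miRNAs. The miR-320-3p point (0.55) lies at rank 16 and the miR-484 point (2.12) at rank 99.

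The pattern of each miRNA over the libraries was compared with those of the other 143 by the root mean square difference of log2 levels, each centred on its own mean. Closest to miR-484 were miR-361-3p (0.25), miR-93-5p (0.29), miR-671-5p (0.31), miR-326-3p (0.34) and the haematopoietic miR-142a-5p (0.34). Levels of miR-361-3p were 1047 CPM in AML spleen, 728 CPM in AML BM, 1918 CPM in normal spleen and 574 CPM in normal BM, in the same order as those of miR-484. Closest to miR-320-3p were miR-378a-3p (0.12), miR-26a-5p (0.13), miR-30d-5p (0.16), miR-423-3p (0.16) and miR-486b-3p (0.20). Levels of miR-378a-3p were 4483 CPM in AML spleen, 4401 CPM in AML BM, 4746 CPM in normal spleen and 3752 CPM in normal BM. The distance between miR-484 and miR-320-3p was 0.69, which placed miR-320-3p at rank 38 from miR-484 and miR-484 at rank 80 from miR-320-3p. With 4 libraries, such likeness is a description only.

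**Figure D5:**
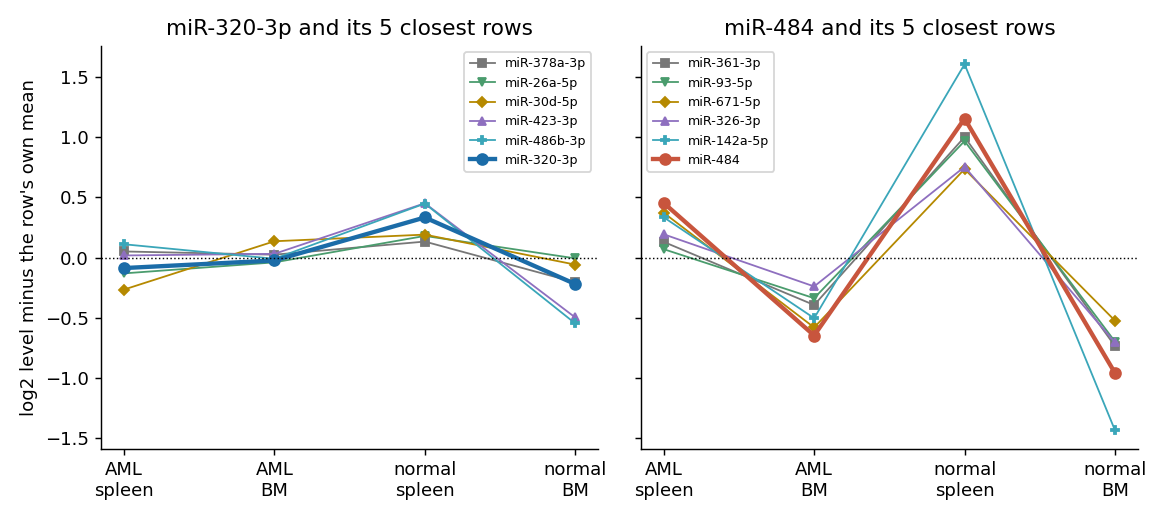
Log2 level in each library minus the miRNA's own mean over the libraries, for each of the 2 miRNAs (thick line) and the 5 whose pattern was closest. Lines join single libraries for tracing only. All 6 miRNAs of the miR-484 plot are highest in normal spleen and, but for miR-671-5p (lowest in AML BM), lowest in normal BM, while miR-320-3p stays within its range of 0.55.

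Markers of other cell types moved between the same libraries. Reads of 5 lymphocyte miRNAs (miR-150 arms and miR-181 members) made up 4.90% of AML spleen, 4.44% of AML BM, 9.45% of normal spleen and 1.69% of normal BM. The summed share had the order of miR-484, but its members did not all follow it. In AML spleen over AML BM, where miR-484 stood at 1.10, both miR-150 arms were called higher, miR-181b-5p (-1.27) and miR-181d-5p (-3.14) were called lower and miR-181a-5p stood at -0.14. The 4 myeloid rows (arms of miR-223 and miR-142a) had the same order as a sum, with 0.266% in AML spleen, 0.186% in AML BM, 0.646% in normal spleen and 0.0726% in normal BM. The miR-142a arms, which are haematopoietic and not restricted to myeloid cells, made up most of it. The other order was seen for miR-223-5p, which was called lower in normal spleen over normal BM (-1.14, and -0.91 with no call with DESeq2 size factors) and in AML spleen over AML BM (-3.36), with 10 counts in AML spleen, 149 in AML BM, 36 in normal spleen and 42 in normal BM. The myeloid miR-223-3p was nearly absent, with 4 counts in AML spleen, 12 in AML BM, 28 in normal spleen and 10 in normal BM, so the macrophage label rests here on the labels and not on this marker. The 7 stromal and endothelial rows ran the other way between the normal tissues, at 2.36% in AML spleen, 2.28% in AML BM, 0.328% in normal spleen and 3.19% in normal BM. The 3 muscle rows held 1.31% in AML spleen, 1.08% in AML BM, 0.208% in normal spleen and 3.57% in normal BM, and the 4 erythroid rows between 0.792% and 0.982% in every library. That steady sum hides opposite members, since in normal spleen over normal BM miR-451a was called lower (-3.43) and miR-486a-5p higher (1.01, and 0.85 with no call on total counts). All members of these lists were in the table, and their part in the miR-484 result was not tested.

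Base composition was set beside the ratios. Spearman's rho between the GC content of a mature miRNA and its log2 ratio was 0.22 over 198 miRNAs in normal spleen over normal BM and -0.06 over 178 in AML spleen over AML BM. In AML BM over normal BM it was 0.21 over 183 miRNAs, and in AML spleen over normal spleen -0.18 over 183. The miRNAs are not independent and share the libraries, so these are descriptions. Any part of base composition in the miR-484 result was not tested. The 41 other miRNAs within 5 percentage points of the GC content of miR-484 had a median log2 ratio of 0.27 in normal spleen over normal BM, with quartiles at -1.12 and 1.23, below the 2.12 of miR-484. In AML spleen over AML BM the median of 36 such miRNAs was -0.36, with an upper quartile of 0.40, against 1.10 for miR-484. In the comparisons of AML with normal, miR-484 lay within the quartiles of such miRNAs. For 35 of them in AML BM over normal BM these were -0.13 and 0.79 (median 0.30), against 0.31 for miR-484. For 37 in AML spleen over normal spleen they were -0.92 and 0.28 (median -0.23), against -0.70 for miR-484.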

How the data were processed

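The authors deposited read counts per miRNA and TPM values for 4 libraries, per the file headers. Each deposited TPM value equalled its count over the library total times 1000000, with no length term, and was used for that check alone. For the aligner, counting tool, genome build and miRNA annotation, the entry is the same: not given in the sources used here. Each library was assigned to its group by its title.

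Counts were scaled with TMM factors (edgeR 4.0.16, R 4.3.3), between 0.900 and 1.07. Ratios carry exact conditional (Clopper-Pearson) 95% intervals. The additive model used edgeR's quasi-likelihood test, with DESeq2 1.42.0 as an alternative, on miRNAs that reached 30 counts in at least 1 library. The scripts were tested on simulated data. Folding used ViennaRNA 2.7.2. Of 804 rows with names of known miRNAs, 673 matched a RefSeq mature sequence. The members, lists and tests were chosen with earlier results of these data known. Named miRNAs are the 2 members, their other arms, the 5 rows closest in pattern to each, and members of the lists. Base composition was examined as an addition after the counts were seen.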

Additional observations from a re-analysis of the deposited data

Results flagged for a closer look

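The AML ratio had opposite signs in the 2 tissues for both miRNAs, with both counting intervals excluding equality. The log2 ratio in spleen minus that in BM was -0.62 for miR-320-3p and -1.01 for miR-484. Each group had 1 library, so the difference between tissues was not tested against variation between animals.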

How the results depend on the processing

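The call of each of the 2 miRNAs was the same under 3 other scalings (total counts, DESeq2 size factors, and totals that leave out the 10 most abundant miRNAs) in all 4 comparisons. These scalings shift all ratios of a comparison together, by 0.20 in AML BM over normal BM without the 10 most abundant, and by -0.16, 0.24 and 0.18 in normal spleen over normal BM on total counts, with DESeq2 size factors and without the 10 most abundant. Values moved beyond their counting interval as follows. Without the 10 most abundant, AML BM over normal BM gave 0.39 for miR-320-3p and 0.51 for miR-484. In AML spleen over normal spleen, total counts gave -0.17 for miR-320-3p and -0.45 for miR-484, and DESeq2 size factors -0.66 and -0.94. In normal spleen over normal BM, miR-320-3p stood at 0.40 on total counts, 0.79 with DESeq2 size factors and 0.74 without the 10 most abundant, and miR-484 at 1.96, 2.35 and 2.30. The value of miR-320-3p in AML spleen over AML BM changed sign, from -0.06 to 0.01, without the 10 most abundant, but stayed inside its counting interval. The tissue difference of the AML ratio was -0.41 for miR-320-3p and -0.81 for miR-484 on total counts, and -0.89 and -1.28 with DESeq2 size factors. With a minimum of 1 count and of 100 counts, the miRNAs called numbered 119 and 24 in AML BM over normal BM, 179 and 64 in AML spleen over normal spleen, 259 and 96 in normal spleen over normal BM, and 141 and 37 in AML spleen over AML BM, since different numbers were compared. In the additive model the AML fold change of miR-320-3p was -0.13 with DESeq2 and -0.11 with no filter on low counts, neither past the threshold, and the cause was not tested. DESeq2 called 8 miRNAs for tissue, against 0 with edgeR. No paired analysis was possible because each group has 1 library and the labels give no replicate numbers. No library could be left out of a comparison for the same reason. Depth limits the lists more than the 2 miRNAs, whose lowest count was 492.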
